A study of Homo sapiens with 8 samples.

Results

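The response of human pancreatic cancer cells to roseoflavin and trametinib given together was examined in 2 established lines, AsPC-1 and PANC-1, by RNA sequencing. The comparison rests on 4 of the 8 libraries of the series: cells given both compounds (Tr+RoF) and cells given the vehicle (Control), 1 library each per line. The other 4 libraries, roseoflavin alone (RoF) and trametinib alone (Tr) in each line, gave the sum against which the combination was read. Roseoflavin was used at 10 µM and trametinib at 1 nM for 24 h, after the cells had spent 3 days as spheroids in a medium made viscous with methylcellulose. The labels give the genotype of all 8 libraries as WT and call the cells derived from pancreatic cancer, so by the labels the groups differ in line, roseoflavin and trametinib. Every group was 1 library of 1 line, and nothing in the labels gives further cultures. Genes were kept if they had a RefSeq mRNA accession (NM_) in the table and a mean of at least 10 TPM over the 8 libraries, which held for 7907 of 62649 genes. TPM, the transcript abundance scaled to 1000000 per library, is relative: it sums to the same total in every library.

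Trametinib inhibits the MEK kinases, which phosphorylate and activate ERK. Active ERK switches on immediate early transcription factors such as FOS and EGR1 and its own negative regulators, among them the DUSP phosphatases and the SPRY proteins, so the transcripts of these genes are widely read as ERK output. Roseoflavin is a natural analogue of riboflavin that human enzymes of flavin metabolism can convert into analogues of the cofactors FMN and FAD, which many oxidoreductases need. Cells respond to metabolic and oxidative stress through a few transcription factors: HIF at low oxygen, NRF2 under oxidative stress, ATF4 and its partner CHOP when amino acids, protein folding or mitochondria fail, and SREBP when sterols fall short.

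The lines differed from each other in all libraries. The epithelial adhesion gene EPCAM stood at 1256 TPM in AsPC-1 Control and 16.5 TPM in PANC-1 Control, the mesenchymal filament VIM at 816 and 3232 TPM, and the neural cadherin CDH2 at 0 in all AsPC-1 libraries and 5.56 TPM in PANC-1 Control. Another mesenchymal marker, SNAI2, went the other way, at 15.0 TPM in AsPC-1 Control and 0.305 TPM in PANC-1 Control. The keratins KRT8, KRT18 and KRT19 lay between 852 and 2526 TPM in every library, and the ductal keratin KRT7 was low, at 3.26 to 7.74 TPM. In the 4 Control and Tr+RoF libraries the 9 acinar, 6 endocrine and 5 endothelial markers summed to at most 0.521 TPM per list, and the leukocyte genes PTPRC, CD3E and MS4A1 were at 0.006 TPM or less. Of the 8 immune genes listed, LYZ was abundant in AsPC-1 (1888 TPM in Control) and CD68 in both lines (108 and 125 TPM). Of the 9 fibroblast genes, LUM was expressed in AsPC-1, where it rose from 103 to 146 TPM (0.50, limma adjusted p = 0.0372), and COL1A1 in PANC-1, at 107 and 98.9 TPM. The defining fibroblast genes DCN and FAP were at 0.083 TPM or less in these 4 libraries. The share of mitochondrially encoded transcripts ranged from 41.2% to 44.1% of TPM among the AsPC-1 libraries and from 22.8% to 25.6% among those of PANC-1, with RoF highest in AsPC-1 and Tr+RoF lowest in PANC-1. The part of these shares and marker levels in the gene changes was not tested.

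All changes below are differences on the log2(TPM + 1) scale, which understates the change of genes with few TPM, and SE is the standard error of such a difference in limma, a linear model fitted across all genes with a shared estimate of the spread. In the model that keeps the line as a block and takes the spread from how the treatments differ between lines (3 residual degrees of freedom), 0 of 7907 genes (0.0%) passed an adjusted p of 0.05 (Benjamini-Hochberg) for Tr+RoF against Control. The smallest adjusted p was 0.0644, for FOS and DUSP6, and 471 genes had an unadjusted p under 0.05. With 1 library each left out, 4 genes passed without AsPC-1 RoF and without PANC-1 RoF (FOS, DUSP6, EGR1 and INSIG1), 3 without AsPC-1 Tr and without PANC-1 Tr (the same without INSIG1), and 0 without any of the other 4. A separate model gave an estimate for each line. It took 1 spread per gene, shared by both lines, from the departures of Tr+RoF from additivity (2 residual degrees of freedom). In it 109 genes (1.38%) passed in AsPC-1, 24 higher (0.304%) and 85 lower (1.07%), and 39 genes (0.493%) passed in PANC-1, 35 higher (0.443%) and 4 lower (0.0506%). With the TPM rescaled over genes with NM_ entries, which leaves out the mitochondrial transcripts, 23 were higher and 6 lower in PANC-1. Nothing in the labels says whether the libraries came from separate cultures, so these p-values measure only the spread between the 8 libraries, which may be technical. The calls within a line lean on this small number of libraries, and those of 1 line also lean on the libraries of the other. For a gene near 0 in 1 line, that line adds almost no departure, so the shared spread is likely too small. In AsPC-1, 91 and 92 genes passed without AsPC-1 RoF and without AsPC-1 Tr, 3 without AsPC-1 Control, 0 without AsPC-1 Tr+RoF, and 1 without any single PANC-1 library. In PANC-1, 23 and 22 genes passed without PANC-1 RoF and without PANC-1 Tr, 0 without PANC-1 Control or PANC-1 Tr+RoF, and 1 without any single AsPC-1 library.

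Over all genes, the responses of the lines had little in common. The sign of the change was the same in both lines for 4141 of 7907 genes (52.4%), and the changes of the lines had a Pearson r of 0.043 and a Spearman rho of 0.062 across the 7907 genes, which are not independent replicates. The 2 comparisons share no library. By a rule of a change of at least 0.32 on the log2 scale in either direction, 106 genes were higher (1.34%) and 293 lower (3.71%) in AsPC-1, against 164 higher (2.07%) and 65 lower (0.822%) in PANC-1. Both lines met the rule for 11 genes higher in each (0.139%) and 11 lower in each (0.139%), while 23 genes were higher in PANC-1 and lower in AsPC-1 (0.291%) and 2 showed the reverse (0.0253%). At the edge of the rule, MSMO1 (0.33 in AsPC-1 and 0.61 in PANC-1) was the last gene counted as higher in both and GOT1 (0.30 and 0.29) the first left out. ORC6 (-0.32 and -0.36) was the last counted as lower in both and AMH (-0.48 and -0.32) the first left out. Among the oppositely moved genes, EPOR (-0.49 and 0.32) was the last inside and VEGFA (-0.32 and 0.46) the first outside.

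**Figure D1:**
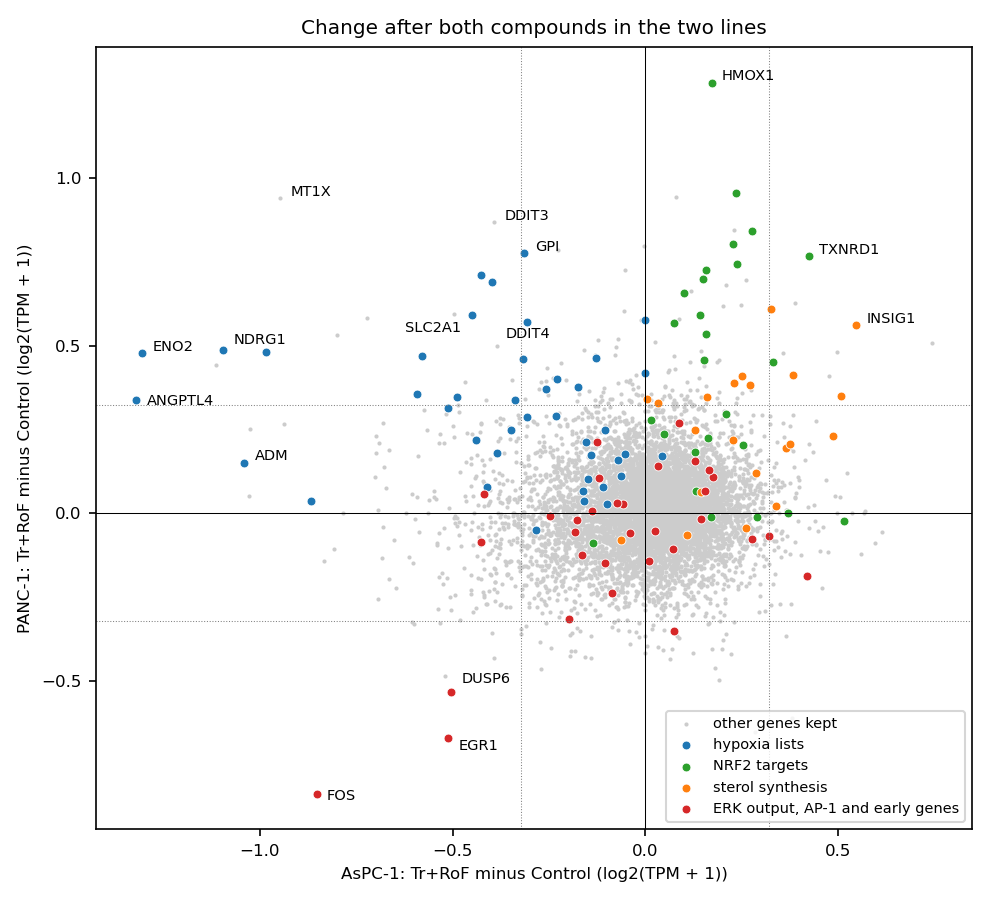
Change after both compounds in AsPC-1 (horizontal) against PANC-1 (vertical), on the log2(TPM + 1) scale, for the 7907 genes kept, with gene lists in colour and dotted lines at changes of 0.32. The hypoxia genes lie mostly in the upper left, lower in AsPC-1 and higher in PANC-1, and FOS, EGR1 and DUSP6 lie at the lower left.

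Only 5 genes passed the test in both lines with the same direction (0.0632% of those tested). Of these, 3 are read as ERK output and fell. FOS, which encodes a subunit of the AP-1 transcription factor, stood at 54.8 TPM in Control, 34.0 in RoF, 45.3 in Tr and 29.9 in Tr+RoF of AsPC-1. In PANC-1 the same order of libraries gave 11.3, 8.38, 7.97 and 5.86 TPM. Either compound alone gave a lower level than the vehicle in both lines, and the combination gave the lowest. The fall was 0.554-fold in AsPC-1 (-0.85, SE 0.09, limma adjusted p = 0.012) and 0.56-fold in PANC-1 (-0.84, SE 0.09, limma adjusted p = 0.0037).

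EGR1, a zinc finger transcription factor induced within minutes of ERK activation, was likewise highest in Control and lowest with both compounds. It stood at 42.2 TPM in Control, 36.9 in RoF, 31.0 in Tr and 29.3 in Tr+RoF of AsPC-1, and at 37.2, 27.9, 30.3 and 23.0 TPM in PANC-1. The larger single change came with trametinib in AsPC-1 and with roseoflavin in PANC-1. The fall after both was -0.51 in AsPC-1 (SE 0.08, limma adjusted p = 0.0226) and -0.67 in PANC-1 (SE 0.08, limma adjusted p = 0.00993). DUSP6, the phosphatase that inactivates ERK in the cytoplasm, stood in AsPC-1 at 193, 176, 155 and 136 TPM and at 18.6, 17.5, 14.0 and 12.5 TPM in PANC-1, in the same order of libraries. Its level was far lower in PANC-1, and the steps had the same order in both lines, with trametinib giving the larger single change. The fall was -0.50 in AsPC-1 (SE 0.08, limma adjusted p = 0.0211) and -0.53 in PANC-1 (SE 0.08, limma adjusted p = 0.0154). The direction of these 3 genes held in each line under every alternative in which they were fitted.

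EGR1 is a textbook target of serum response factor, which ERK activates through its partners at the CArG box, and the stretch just before its start site is shown because it holds this element. The 150 bases before the RefSeq start of EGR1 (GRCh38.p14, chr5:138465329-138465478, plus strand) carry 2 CArG boxes, which begin 105 and 83 bases before the start and are in capitals.
EGR1: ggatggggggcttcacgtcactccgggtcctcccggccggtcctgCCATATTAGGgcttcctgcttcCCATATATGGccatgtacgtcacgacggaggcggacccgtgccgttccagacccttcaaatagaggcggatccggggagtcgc
A CArG box was found in the 250 bases before the start in 96 of the 6498 kept genes with a promoter in the RefSeq table (1.48%), and in 2 of the 14 early genes with one (14.3%). This motif was chosen after the values had been seen. A match describes the letters of the window and does not show binding.

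Most of the wider set of ERK output genes did not pass. Of 20 genes listed, 18 were kept, and 10 (AsPC-1) and 13 (PANC-1) of them were lower than in Control, beside 3329 and 3562 of all 7907 genes. In AsPC-1 4 of them fell (EGR1, DUSP6, PHLDA1 and IER3) and 0 rose, and in PANC-1 2 fell (EGR1 and DUSP6) and 0 rose. Over all 7907 genes 85 passed as lower in AsPC-1 and 4 in PANC-1. PHLDA1, a regulator of cell survival, stood at 122, 123, 93.5 and 90.8 TPM in Control, RoF, Tr and Tr+RoF of AsPC-1, and at 248.5, 243, 241 and 234 TPM in PANC-1. The step in AsPC-1 came with trametinib, with or without roseoflavin, and the PANC-1 libraries lay close together. IER3, an early response gene, stood at 470, 455, 360 and 351 TPM in AsPC-1 and at 331, 379, 319 and 344 TPM in PANC-1. The list had a median change of -0.05 (AsPC-1) and -0.07 (PANC-1), beside 0.02 and 0.01 over all genes kept. With trametinib alone the median was -0.18 and -0.10, and with roseoflavin alone -0.01 and 0.00. FOSL1, an AP-1 subunit with a long-lived response to ERK, stood at 83.2, 107, 68.5 and 104 TPM in AsPC-1, lower with trametinib alone but higher with roseoflavin whether or not trametinib was present. CCND1, the G1 cyclin, stood at 84.8, 101, 87.3 and 103 TPM in AsPC-1. Neither change passed the test (limma adjusted p = 0.117 and 0.0894). MYC stood at 74.3 and 72.2 TPM in Control and Tr+RoF of AsPC-1 and at 57.3 and 55.0 TPM in PANC-1. Among the 16 early genes kept of 20, FOS and EGR1 fell in both lines, and the list medians were -0.08 (AsPC-1) and -0.01 (PANC-1).

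The other 2 genes that passed in both lines rose. INSIG1, which holds the SREBP precursor in the endoplasmic reticulum and is itself an SREBP target, stood at 30.4 TPM in Control, 33.6 in RoF, 39.1 in Tr and 44.9 in Tr+RoF of AsPC-1. In PANC-1 it stood at 53.2, 76.4, 55.2 and 78.9 TPM. The end level relative to Control was nearly the same in both lines, but the single changes were not: in AsPC-1 trametinib gave 0.35 and roseoflavin 0.14, whereas PANC-1 had 0.05 with trametinib and 0.52 with roseoflavin. The rise after both was 1.46-fold in AsPC-1 (0.55, SE 0.07, limma adjusted p = 0.0211) and 1.475-fold in PANC-1 (0.56, SE 0.07, limma adjusted p = 0.0118).

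A few genes of cholesterol synthesis passed beside INSIG1, and most did not. Of 24 genes listed, 21 were kept, with a median change of 0.26 (AsPC-1) and 0.25 (PANC-1), beside 0.02 and 0.01 over all genes. The value was above 0 for 20 of the 21 in AsPC-1 and for 18 in PANC-1, beside 4518 and 4282 of all 7907 genes, with none lower in AsPC-1 and higher in PANC-1. In AsPC-1 5 rose and 0 fell: INSIG1, the mevalonate branch enzymes IDI1 and HMGCS1, and the sterol branch enzymes SQLE and CYP51A1. In PANC-1 2 rose and 0 fell, INSIG1 and the sterol demethylating enzyme MSMO1. Over all 7907 genes 24 passed as higher in AsPC-1 and 35 in PANC-1. HMGCS1, which makes the substrate of HMG-CoA reductase, stood at 45.1, 50.7, 52.6 and 59.1 TPM in AsPC-1 and at 26.7, 34.3, 27.1 and 35.8 TPM in PANC-1. SQLE, the flavoenzyme squalene epoxidase, stood at 33.7, 40.8, 40.1 and 47.7 TPM in AsPC-1 and at 62.8, 72.7, 61.0 and 73.9 TPM in PANC-1. In AsPC-1 both single compounds gave part of the rise, and in PANC-1 the RoF and Tr+RoF libraries were both high while Tr stayed near Control. The list medians show the same: 0.13 with roseoflavin, 0.09 with trametinib and 0.26 with both in AsPC-1, against 0.19, 0.00 and 0.25 in PANC-1. Fatty acid synthesis genes, 11 kept of 14, had medians of 0.12 and 0.33. In PANC-1 2 of them rose, the desaturase SCD, from 1868 to 2959 TPM, and malic enzyme ME1, from 27.3 to 49.9 TPM, and none passed in AsPC-1.

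TXNRD1, the selenium-containing flavoenzyme that keeps thioredoxin reduced and a target of NRF2, stood at 154, 195, 179 and 207 TPM in Control, RoF, Tr and Tr+RoF of AsPC-1. In PANC-1 it stood at 107, 171, 107 and 183 TPM. Trametinib alone left PANC-1 at its Control level, whereas in AsPC-1 it gave part of the rise. The rise after both was 0.42 in AsPC-1 (SE 0.08, limma adjusted p = 0.0366) and 0.77 in PANC-1 (SE 0.08, limma adjusted p = 0.0037). The difference between lines did not pass (0.35, SE 0.11, limma adjusted p = 0.238).

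TXNRD1 is shown with the window before the downstream of its 2 RefSeq starts because the motif of NRF2 is there. The 150 bases (GRCh38.p14, chr12:104286882-104287031, plus strand) hold 1 match to the antioxidant element TGACNNNGC on the reverse strand, 102 bases before the start and in capitals.
TXNRD1: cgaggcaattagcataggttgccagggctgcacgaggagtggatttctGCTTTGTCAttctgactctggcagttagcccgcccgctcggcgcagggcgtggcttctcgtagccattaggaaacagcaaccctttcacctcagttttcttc
The element, searched on both strands of the 250 bases before the start, was in 5 of 19 NRF2 targets with a promoter in the table (26.3%) and in 1039 of 6498 kept genes (16%).

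More NRF2 targets passed in PANC-1 than in AsPC-1. Of 28 listed, 26 were kept, and 25 (AsPC-1) and 21 (PANC-1) of them were higher than in Control, beside 4518 and 4282 of all 7907 genes. In PANC-1 11 rose and 0 fell, and in AsPC-1 2 rose, TXNRD1 and the aldo-keto reductase AKR1C1, and 0 fell. Over all 7907 genes 35 passed as higher in PANC-1 and 24 in AsPC-1. The median change of the list was 0.17 (AsPC-1) and 0.45 (PANC-1). HMOX1, which degrades heme, stood at 273 TPM in Control, 657 in RoF, 257 in Tr and 668 in Tr+RoF of PANC-1. In AsPC-1 it stood at 11.1, 8.38, 12.4 and 12.6 TPM. The PANC-1 libraries fall into a low pair and a high pair divided by roseoflavin, and AsPC-1 shows no such split. The change was 1.29 in PANC-1 (SE 0.12, limma adjusted p = 0.0037) and 0.17 in AsPC-1 (limma adjusted p = 0.515), and the difference between lines passed (1.11, SE 0.17, limma adjusted p = 0.0329), which it did for no other NRF2 target. SLC7A11, the cystine importer, stood at 6.61, 12.1, 6.87 and 13.8 TPM in PANC-1 and at 14.0, 18.8, 12.4 and 16.7 TPM in AsPC-1. SRXN1, GCLM, GCLC, NQO1, ME1, TKT, FTL, TRIM16L and TXNRD1 also rose in PANC-1, with changes of 0.54 to 0.84. They cover peroxiredoxin repair, glutathione synthesis, quinone reduction, NADPH supply and iron storage. FTL has many processed copies in the genome and TRIM16L a close relative, TRIM16, so reads of these genes may be shared. AKR1C1 was near 0 in PANC-1, at 0.071 to 0.115 TPM, so the shared spread behind its AsPC-1 call is likely too small.

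**Figure D2:**
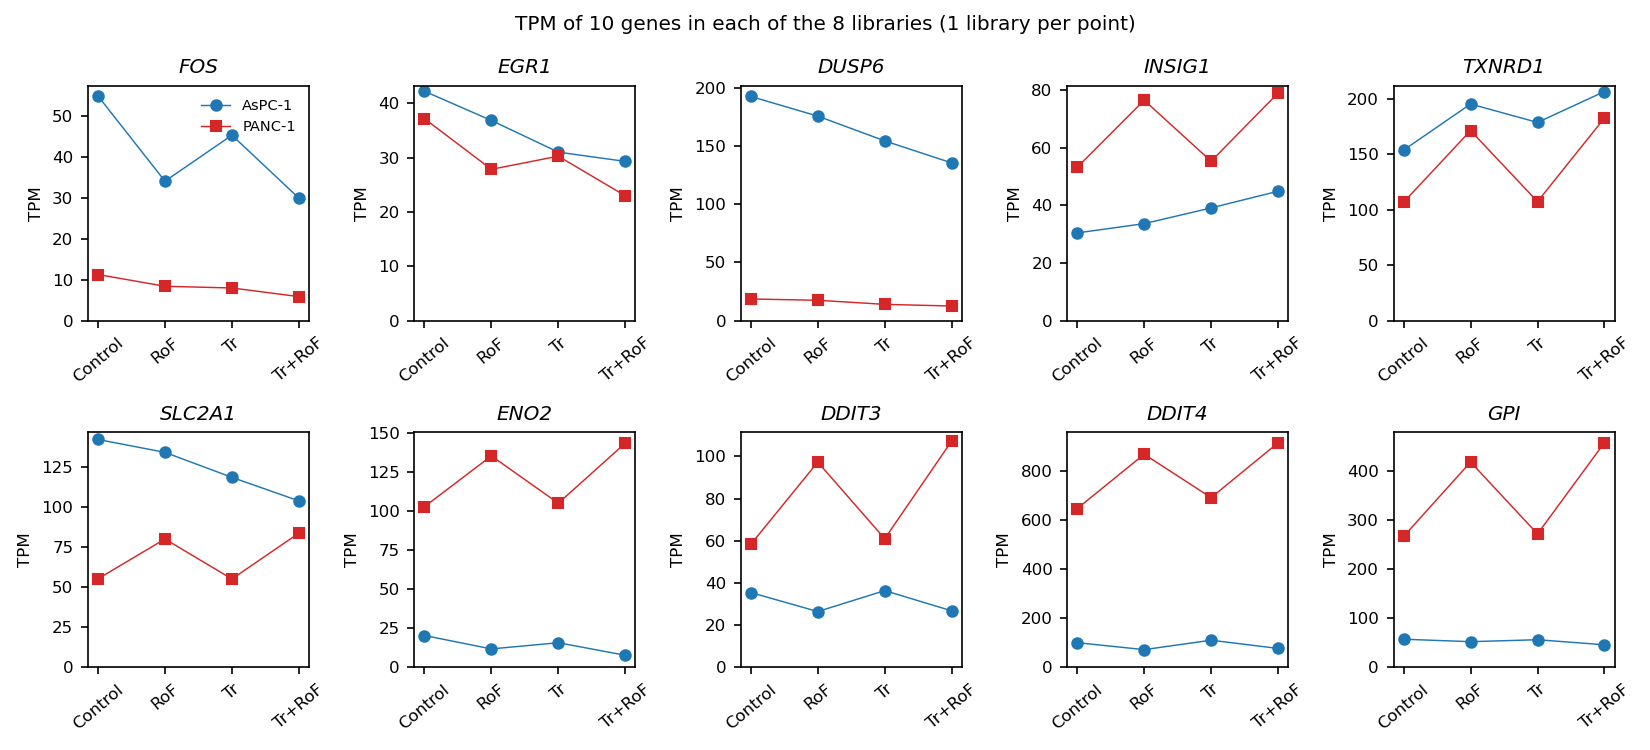
TPM of 10 genes in each library, with treatments on the horizontal axis, AsPC-1 in blue circles and PANC-1 in red squares, 1 library per point and the vertical axis from 0. In the upper row the lines move the same way (FOS, EGR1 and DUSP6 down, INSIG1 and TXNRD1 up), and in the lower row SLC2A1, ENO2, DDIT3, DDIT4 and GPI go down in AsPC-1 and up in PANC-1 with both compounds.

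Beyond the genes that passed in both lines, the 10 genes with the largest rise in the less responsive line were INSIG1, CCL5, GDF15, TXNRD1, RAB32, FGF19, HMGCS1, LYNX1-SLURP2, IDI1 and EPHX1. GDF15, a stress-induced cytokine, stood at 25.2, 24.7, 30.8 and 36.1 TPM in AsPC-1 and at 70.1, 100.3, 61.3 and 98.3 TPM in PANC-1. It was highest with both compounds in AsPC-1, while in PANC-1 the libraries with roseoflavin were the high ones. Its changes of 0.50 and 0.48 did not pass (limma adjusted p = 0.0507 and 0.104). RAB32, a small GTPase of mitochondria and lysosome-related organelles, stood at 14.1, 16.7, 17.6 and 20.0 TPM in AsPC-1 and at 57.0, 75.7, 61.4 and 76.0 TPM in PANC-1, and rose in AsPC-1 (0.48, limma adjusted p = 0.0285). CCL5 and LYNX1-SLURP2 averaged below 1 TPM in AsPC-1 and FGF19 below 1 TPM in PANC-1. The 10 largest common falls were FOS, EGR1, DUSP6, PRDM8, C4BPB, AJM1, ARHGAP33, PRRT2, IGFBP1 and ZNF700. PRDM8, a zinc finger repressor, stood at 39.8, 34.2, 26.8 and 27.5 TPM in AsPC-1 and at 5.92, 4.49, 4.44 and 3.94 TPM in PANC-1. Its changes of -0.52 and -0.49 did not pass (limma adjusted p = 0.0667 and 0.131). IGFBP1, a secreted binder of insulin-like growth factors, stood at 525, 504, 447 and 345 TPM in AsPC-1 and fell there (-0.61, limma adjusted p = 0.0374). In PANC-1 its TPM was 2.51, 1.70, 2.27 and 1.80. C4BPB averaged below 1 TPM in PANC-1 and PRRT2 below 1 TPM in AsPC-1. When the mean of 10 TPM was required in each line, a filter added after the data had been seen, 9 genes passed in both lines the same way. GDF15, RAB32, HMGCS1, MSMO1 and EPHX1 joined, and FOS was no longer tested because its PANC-1 mean is below 10 TPM.

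The change was then compared between the lines. For this difference (the change in PANC-1 minus the change in AsPC-1) 38 genes passed (0.481%), 36 with a positive difference (0.455%) and 2 with a negative one (0.0253%). A difference that passed need not be a change in opposite directions: HMOX1 was higher in both lines and SAT1 lower in both. Of the 38, 11 belonged to the lists of hypoxia targets, which made up 42 of the 7907 genes kept. With 1 library left out, 27 and 26 genes passed without AsPC-1 RoF and without AsPC-1 Tr, 12 without AsPC-1 Control, 4 without PANC-1 RoF and without PANC-1 Tr, 1 without PANC-1 Tr+RoF, and 0 without AsPC-1 Tr+RoF or PANC-1 Control. Rescaling the TPM over genes with NM_ entries left 10. The 10 genes that led the class higher in PANC-1 and lower in AsPC-1 were MT1X, EFNA3, TFF3, NUPR1, NDRG1, PFKFB4, ENO2, PFKFB3, SLC2A1 and MT1A, and 11 of the 23 in the class were hypoxia genes. MT1A averaged below 1 TPM in AsPC-1, at 1.75, 0.279, 0.551 and 0.27 TPM in Control, RoF, Tr and Tr+RoF. TFF3 was low in PANC-1, at 1.69, 3.93, 4.36 and 2.89 TPM, and did not pass in either line. Values this near the floor are the least certain. NUPR1, a small stress-induced chromatin protein, stood at 5.13, 4.03, 9.65 and 3.34 TPM in AsPC-1 and at 39.7, 59.3, 37.7 and 60.5 TPM in PANC-1, and did not pass in either line.

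Only 3 genes passed within each line and in opposite directions (0.0379%), all lower in AsPC-1 and higher in PANC-1. SLC2A1, the glucose transporter induced by HIF, stood at 142 TPM in Control, 134 in RoF, 118 in Tr and 104 in Tr+RoF of AsPC-1. In PANC-1 it stood at 55.1, 80.0, 55.0 and 83.6 TPM. In TPM the levels of the lines were well apart in Control and nearer each other after both compounds. Genes with NM_ entries held 44.7% of TPM in AsPC-1 Tr+RoF and 58.5% in PANC-1 Tr+RoF, so levels are not on a like scale across lines. SLC2A1 fell by 0.45 in AsPC-1 (SE 0.07, limma adjusted p = 0.0262) and rose by 0.59 in PANC-1 (SE 0.07, limma adjusted p = 0.0105), a difference of 1.04 (SE 0.11, limma adjusted p = 0.0067). DDIT3, which encodes the stress factor CHOP, stood at 35.4, 26.4, 36.3 and 26.7 TPM in AsPC-1 and at 58.3, 97.3, 60.9 and 107 TPM in PANC-1. In both lines the libraries with roseoflavin stood apart from those without, below them in AsPC-1 and above them in PANC-1. The change was -0.39 (limma adjusted p = 0.0414) in AsPC-1 and 0.87 (limma adjusted p = 0.0037) in PANC-1. DDIT4, an inhibitor of the growth kinase mTORC1 that HIF and ATF4 both induce, stood at 99.6, 71.1, 109.6 and 76.0 TPM in AsPC-1. In PANC-1 it stood at 645, 867, 690 and 913 TPM. The change was -0.38 (limma adjusted p = 0.0345) in AsPC-1 and 0.50 (limma adjusted p = 0.0136) in PANC-1, with the same split by roseoflavin as DDIT3. None of the 5 genes with a shared direction and none of these 3 passed in both lines once any 1 of the 8 libraries was left out, while their direction within each line held throughout.

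ENO2 had the smallest p for a difference between lines. It encodes the neuronal form of the glycolytic enzyme enolase and is a HIF target. It stood at 20.2 TPM in Control, 11.6 in RoF, 15.6 in Tr and 7.58 in Tr+RoF of AsPC-1, and at 103, 135, 105 and 143 TPM in PANC-1. In AsPC-1 each compound gave a lower level and both gave the lowest, and in PANC-1 the libraries with roseoflavin were the high ones. The change was -1.31 in AsPC-1 (SE 0.09, limma adjusted p = 0.00077) and 0.48 in PANC-1 (SE 0.09, limma adjusted p = 0.07), a difference of 1.78 (SE 0.13, limma adjusted p = 0.00105). GPI, which follows hexokinase in glycolysis, stood at 57.0, 52.0, 55.9 and 45.6 TPM in AsPC-1. In PANC-1 it stood at 267, 419, 272 and 459 TPM. It rose in PANC-1 (0.78, limma adjusted p = 0.0037) but did not pass in AsPC-1 (-0.31, limma adjusted p = 0.0966), and the difference of 1.09 passed (SE 0.11, limma adjusted p = 0.0067).

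The genes of the hypoxia lists took opposite sides in the lines almost throughout. Of 21 glycolysis genes known as HIF targets 19 were kept, and 18 of these were lower in AsPC-1 and higher in PANC-1 with both compounds, against 1711 of all 7907 genes. LDHA was the exception, at 911 and 748 TPM in Control and Tr+RoF of AsPC-1 and at 1229 and 1188 TPM in PANC-1, where its sign did not hold under every alternative. The list had a median change of -0.28 (AsPC-1) and 0.25 (PANC-1). In AsPC-1 5 fell and 0 rose (ENO2, PFKFB4, SLC2A1, PFKFB3 and the lactate exporter SLC16A3), and in PANC-1 3 rose and 0 fell (GPI, SLC2A1 and hexokinase HK2). Over all 7907 genes 85 passed as lower in AsPC-1 and 35 as higher in PANC-1. PFKFB4, which sets the level of a phosphofructokinase activator, stood at 6.84, 4.43, 7.08 and 2.96 TPM in AsPC-1 and at 32.2, 42.1, 32.3 and 45.3 TPM in PANC-1. The middle enzymes of the pathway had small values: PGAM1, ENO1, PKM and TPI1 changed by -0.16 to -0.06 in AsPC-1 and by 0.03 to 0.11 in PANC-1, and none passed. Rescaling the TPM over genes with NM_ entries shifted PANC-1 changes by a median of -0.05 over all genes. The sign of such small values, and so the count of 18, can depend on the scaling.

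Hypoxia targets outside glycolysis behaved likewise. Of 28 listed 23 were kept, and 20 were lower in AsPC-1 and higher in PANC-1, against 1711 of all 7907 genes. The medians were -0.31 (AsPC-1) and 0.34 (PANC-1). In AsPC-1 6 fell and 0 rose: ADM, HILPDA, NDRG1, BHLHE40, KDM3A and CA9. In PANC-1 2 rose and 0 fell, VEGFA and STC2. Over all 7907 genes 85 passed as lower in AsPC-1 and 35 as higher in PANC-1. BNIP3 and STC2 were listed at 0 in all 4 AsPC-1 libraries, so these genes have no change to give there. The shared spread behind the PANC-1 call of STC2 is thus likely too small. ADM, the vasodilator adrenomedullin, stood at 33.3, 17.7, 40.2 and 15.7 TPM in AsPC-1 and at 215, 252, 205 and 239 TPM in PANC-1. It was low in AsPC-1 wherever roseoflavin was present and highest with trametinib alone. It fell in AsPC-1 (-1.04, SE 0.12, limma adjusted p = 0.012), and the PANC-1 change of 0.15 did not pass (limma adjusted p = 0.702). NDRG1, a stress-induced differentiation gene, stood at 104, 64.9, 122 and 48.2 TPM in AsPC-1 and at 25.2, 32.7, 24.0 and 35.8 TPM in PANC-1. Its order matched that of ADM in AsPC-1. CA9, a carbonic anhydrase of the cell surface and a marker of hypoxic tumour regions, stood at 143, 100.4, 163 and 77.7 TPM in AsPC-1. In PANC-1 it was low, at 3.13 to 3.68 TPM. VEGFA, the vessel growth factor, stood at 25.7, 19.1, 26.9 and 20.4 TPM in AsPC-1 and at 47.8, 63.4, 47.7 and 66.0 TPM in PANC-1.

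A pair of genes of this opposite group, ENO2 and DDIT4, is shown with the 150 bases before their RefSeq start (GRCh38.p14) because both hold the core of the hypoxia response element, ACGTG. ENO2 is on chr12:6914430-6914579 and DDIT4 on chr10:72273774-72273923, both on the plus strand, with the core 118 and 125 bases before the start and in capitals.
ENO2: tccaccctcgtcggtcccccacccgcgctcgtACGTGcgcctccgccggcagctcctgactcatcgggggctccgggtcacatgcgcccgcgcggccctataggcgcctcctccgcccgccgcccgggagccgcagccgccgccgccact
DDIT4: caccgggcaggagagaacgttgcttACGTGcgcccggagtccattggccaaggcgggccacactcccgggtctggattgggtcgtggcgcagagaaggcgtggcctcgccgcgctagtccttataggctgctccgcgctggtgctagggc
ACGTG, searched on both strands of the 250 bases before the start, was in 12 of the 17 genes with a promoter in the table among the 23 higher in PANC-1 and lower in AsPC-1 (70.6%). It was in 1962 of 6498 kept genes (30.2%), in 1 of 8 genes higher in both lines (12.5%) and in 3 of 7 lower in both (42.9%). Among the 38 genes whose difference between lines passed the test, 27 had a promoter in the table, and 11 of these held ACGTG (40.7%). In the hypoxia lists it was in 12 of 19 (63.2%) and 14 of 19 (73.7%), and these genes were listed because they are known HIF targets. The core is also part of the clock and MYC element CACGTG, where both strands match at once. The sterol element TCACNCCAC was in 0 of 14 sterol synthesis genes and 88 of 6498 kept genes (1.35%), and the CEBP-ATF element TGATGNAAT in 1 of 26 ATF4 and CHOP targets and 33 of 6498 kept genes (0.508%).

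Targets of ATF4 and CHOP, which serve amino acid supply and the stress response, were measured as 30 genes kept of 34 listed, with 14 values above 0 in AsPC-1 and all 30 in PANC-1, beside 4518 and 4282 of all 7907 genes. In PANC-1 16 of them were higher by at least 0.32, beside 164 of all 7907 genes. The list median was 0.38 in PANC-1 and 0.00 in AsPC-1. In PANC-1 6 rose and 0 fell: DDIT3, SLC7A11, TRIB3, DDIT4, ASNS and STC2. In AsPC-1 0 rose and 2 fell, DDIT3 and DDIT4. Over all 7907 genes 35 passed as higher in PANC-1 and 85 as lower in AsPC-1. TRIB3, a pseudokinase induced by CHOP, stood at 29.5, 46.3, 32.6 and 49.4 TPM in PANC-1 and at 14.6, 14.2, 12.2 and 14.0 TPM in AsPC-1. ASNS, asparagine synthetase, stood at 72.7, 99.3, 73.3 and 101 TPM in PANC-1 and at 25.9, 21.8, 28.3 and 23.6 TPM in AsPC-1, and its difference between lines passed (limma adjusted p = 0.0471). The PANC-1 libraries again split by roseoflavin. The transcript of ATF4 itself stood at 236, 270, 231 and 272 TPM in PANC-1 and at 240, 220, 258 and 223 TPM in AsPC-1. PHGDH, the first enzyme of serine synthesis, and STC2 were absent or nearly so in AsPC-1, at 0 to 0.011 TPM.

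Metallothioneins, small proteins that bind zinc and copper, were kept with 2 zinc transporters as 5 of 9 genes listed. Of the 5, 4 were lower in AsPC-1 and higher in PANC-1, as were 1711 of all 7907 genes, and SLC39A10 was lower in both. MT1E stood at 49.6, 39.0, 55.9 and 42.2 TPM in AsPC-1 and at 104, 162, 125 and 180 TPM in PANC-1. MT2A stood at 41.5, 28.8, 46.8 and 27.5 TPM in AsPC-1 and at 666, 809, 645 and 826 TPM in PANC-1. Both were lower in AsPC-1 and higher in PANC-1 wherever roseoflavin was present, and the difference between lines passed for both (1.01 and 0.89, limma adjusted p = 0.0067 and 0.0262). Within a line, MT2A fell in AsPC-1, as did 85 of all 7907 genes, and MT1E rose in PANC-1, as did 35. MT1X had changes of -0.95 and 0.94 but did not pass in either line (limma adjusted p = 0.093 and 0.176). The coding sequences of this family are much alike, so reads may be shared between its members.

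Apart from these lists, LGALS1, which encodes galectin 1, stood at 103, 94.5, 74.2 and 64.1 TPM in AsPC-1 and at 1279.98, 1442, 1449.7 and 1544 TPM in PANC-1. Its AsPC-1 step came mainly with trametinib. The difference between lines passed (0.95, SE 0.10, limma adjusted p = 0.0067). IFI6, an interferon-induced mitochondrial protein, stood at 4.86, 3.30, 4.20 and 2.06 TPM in AsPC-1 and at 87.2, 94.4, 99.5 and 105 TPM in PANC-1, with a difference of 1.20 (limma adjusted p = 0.024). Of 29 genes of interferon response 18 were kept, and 2 of these, IFI6 and IRF7, fell in AsPC-1, as did 85 of all 7907 genes. None of the list passed in PANC-1, where 35 of all genes passed as higher and 4 as lower. EFNA3, an ephrin ligand, stood at 16.01, 11.2, 15.0 and 9.31 TPM in AsPC-1 and at 20.4, 25.0, 19.3 and 31.2 TPM in PANC-1. The reverse pattern was rare. CCN2, a matricellular target of YAP and TGF-beta, stood at 12.0, 15.0, 15.8 and 18.2 TPM in AsPC-1 and at 60.2, 56.6, 56.4 and 55.2 TPM in PANC-1. It and CTXN1 were the 2 genes with a negative difference (-0.68 and -0.62, limma adjusted p = 0.0471 for both). By the size rule the reverse pattern held for C1orf53 and AREG, an EGFR ligand, and RHBDL2, AGMAT and NR0B2 came next; none of the 5 passed in a line.

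Of the 10 genes with the smallest p in AsPC-1, ENO2, FOS, LGALS1, ADM and IFI6 are described above, and EGFL8, HOXB4, SAT1, ARRDC3 and SPAG4 fell too. ARRDC3, an arrestin-like adaptor, stood at 54.1, 40.2, 48.6 and 26.1 TPM in AsPC-1 and at 106, 129.7, 105 and 127 TPM in PANC-1. It fell in AsPC-1 (-1.03, limma adjusted p = 0.0138), and the difference between lines passed (1.28, limma adjusted p = 0.0262). SAT1, which acetylates polyamines, stood at 86.0, 71.5, 64.6 and 56.6 TPM in AsPC-1 and at 935, 946, 896 and 923 TPM in PANC-1. HOXB4, a homeobox gene, stood at 21.2, 15.3, 16.7 and 12.8 TPM in AsPC-1 and at 85.9, 83.0, 83.9 and 78.2 TPM in PANC-1. All 3 were lower than Control in AsPC-1 after either compound and lowest after both. Some genes that passed in AsPC-1, 2 of them chosen here after their values were seen, were near absent from PANC-1. MUC13, a membrane mucin, stood at 221, 215, 333 and 334 TPM in AsPC-1 and at 0.064 TPM or less in PANC-1. ALDH1A1, a retinal dehydrogenase used as a marker of stem-like cells, stood at 33.7, 31.6, 54.6 and 52.2 TPM in AsPC-1 and at 0.039 TPM or less in PANC-1. Both were high where trametinib was present, with or without roseoflavin, and both rose after the combination (0.60 and 0.61, limma adjusted p = 0.0211 for both). They were kept only through their AsPC-1 level. Their PANC-1 values add almost no departure to the spread shared by the lines, so that spread is likely too small and these p-values say little. In PANC-1 the fourth fall beside FOS, EGR1 and DUSP6 was FJX1, a secreted regulator of growth, at 60.4, 52.9, 48.9 and 42.5 TPM (-0.50, limma adjusted p = 0.0487). S100P, a calcium-binding protein common in pancreatic cancer, rose in PANC-1 from 4.25 to 9.12 TPM (0.95, limma adjusted p = 0.00993) and stood at 85.0 and 89.8 TPM in AsPC-1. TMEM37 also passed in PANC-1, from 0.243 to 1.16 TPM (0.80, limma adjusted p = 0.00993), and stood at 85.1 and 85.0 TPM in AsPC-1. It was kept only through its AsPC-1 level. Its PANC-1 values are near the floor, so that call says little about a change.

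Most S phase and mitosis genes had small values below 0 in PANC-1, where 3562 of all 7907 genes were lower than in Control, beside 3329 in AsPC-1. Of 29 S phase genes kept of 37, 28 were lower than in Control there, with a median of -0.15, and 20 were lower in AsPC-1, with a median of -0.09. Of 39 mitosis genes kept of 40, 35 were lower in PANC-1, with a median of -0.13, and 19 in AsPC-1, where the median was 0.00 (-0.01 with either other scaling). No gene of either list passed the test in a line, while 109 of all 7907 genes passed in AsPC-1 and 39 in PANC-1. CCNE1, the G1/S cyclin, stood at 24.3 and 18.7 TPM in Control and Tr+RoF of PANC-1 and at 6.58 and 5.87 TPM in AsPC-1. The 30 flavoproteins kept of 38 had medians of 0.04 and 0.03 (-0.02 in PANC-1 with the TPM rescaled over genes with NM_ entries), and only those already named above passed: TXNRD1 and SQLE in AsPC-1, TXNRD1 and NQO1 in PANC-1. Of 10 genes of riboflavin handling 7 were kept, and 1 passed, the biliverdin and flavin reductase BLVRB in PANC-1, at 28.0, 42.7, 30.7 and 42.3 TPM. RFK, which makes FMN, stood at 5.62 and 6.87 TPM in Control and Tr+RoF of AsPC-1 and at 15.7 and 14.8 TPM in PANC-1. FLAD1, which makes FAD, stood at 17.1 and 17.2 TPM in AsPC-1 and at 28.7 and 29.5 TPM in PANC-1. Among 29 lysosome and autophagy genes kept of 34, 21 were higher than in Control in AsPC-1, and 24 were so in PANC-1, beside 4518 and 4282 of all 7907 genes, with medians of 0.11 and 0.17. The only 1 to pass was the autophagy kinase ULK1, which fell in AsPC-1 (-0.50, limma adjusted p = 0.0282).

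**Figure D3:**
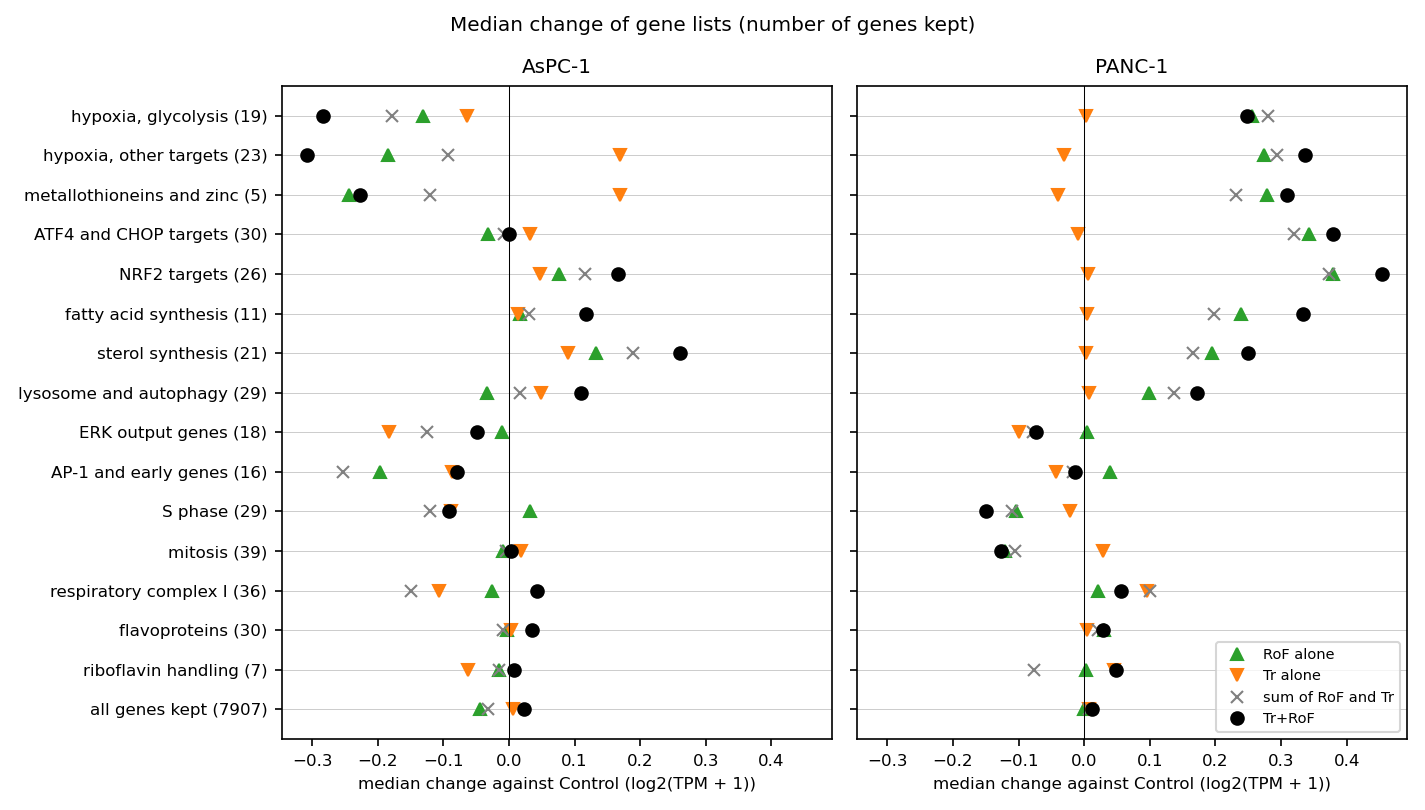
Median change against Control of 15 gene lists and of all genes kept, on the log2(TPM + 1) scale, after roseoflavin alone (green triangles), trametinib alone (orange triangles), their sum (grey crosses) and both compounds (black circles), with AsPC-1 on the left and PANC-1 on the right. In PANC-1 the trametinib medians lie between -0.10 and 0.10, while in AsPC-1 the hypoxia targets outside glycolysis lie at 0.17 with trametinib and at -0.31 with both.

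The remaining lists had few calls. Over all 7907 genes 24 passed as higher and 85 as lower in AsPC-1, and 35 as higher and 4 as lower in PANC-1. Heat shock chaperones (17 kept of 18) had medians of -0.01 (AsPC-1) and -0.09 (PANC-1), ER chaperones (20 of 20) 0.10 and -0.01, and receptor tyrosine kinases (12 of 20) -0.10 and 0.07, with none passing in either line. G1 cyclins and inhibitors (15 of 18) had medians of -0.01 and -0.07 and no call. Of the collagen and matrix genes (16 of 20) COL7A1 and ITGA5 fell in AsPC-1, where both are below 3 TPM. Of the chemokines and cytokines (10 of 22) CCL5 passed in AsPC-1, from 0.066 to 0.786 TPM and thus near the floor. Of the AHR targets (9 of 10) NQO1 rose in PANC-1. Of the circadian clock genes (6 of 18) BHLHE40 fell in AsPC-1, and of the epithelial markers (15 of 20) S100P rose in PANC-1. Mesenchymal markers (9 of 15) had no call.

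The combination was then set against the sum of the changes after each compound alone. Within a line both subtract the same Control library, which by itself makes them move together. For the departure from the sum, 0 of 7907 genes (0.0%) passed in limma with the line as a block, the smallest adjusted p was 0.999, and 87 genes had an unadjusted p under 0.05. For Tr+RoF against Tr and against RoF, 0 genes (0.0% and 0.0%) passed, with 283 and 200 at an unadjusted p under 0.05. The genes with the smallest p were NDUFAF8 for the departure (0.55, SE 0.11, limma adjusted p = 0.999), the sterol reductase DHCR7 against Tr (0.37, SE 0.07, limma adjusted p = 0.999) and DUSP6 against RoF (-0.41, SE 0.07, limma adjusted p = 0.931). The 3 quantities share libraries, so they are not independent of each other. Over all genes the departure had a median of 0.05 and an SD of 0.17 in AsPC-1, where 376 genes were above the sum by at least 0.32 and 96 below it. In PANC-1 the median was 0.01 and the SD 0.12, with 69 genes above and 76 below. The AsPC-1 RoF library, which enters the AsPC-1 sum, had a median change from Control of -0.04 over all genes and the largest mitochondrial share of the 8 libraries, and the part of this in the departure was not tested.

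The 5 genes that passed in both lines with a shared direction had small departures from the sum, which their selection favours, since the spread in the test within a line is that departure. The sum and the observed change of FOS were -0.94 and -0.85 for AsPC-1, against -0.83 and -0.84 for PANC-1. For EGR1 they were -0.62 and -0.51 (AsPC-1), then -0.69 and -0.67 (PANC-1). DUSP6 gave -0.45 and -0.50 (AsPC-1), then -0.47 and -0.53 (PANC-1). All 3 were lower with both compounds than with either alone, in both lines. INSIG1 had a sum of 0.49 and a change of 0.55 in AsPC-1, against 0.57 and 0.56 in PANC-1. TXNRD1 had 0.56 and 0.42 in AsPC-1, against 0.68 and 0.77 in PANC-1.

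In PANC-1 the 3 stress lists lay near the change after roseoflavin alone. NRF2 targets had medians of 0.38 with roseoflavin, 0.01 with trametinib and 0.45 with both, ATF4 and CHOP targets 0.34, -0.01 and 0.38, and hypoxia targets outside glycolysis 0.27, -0.03 and 0.34. In AsPC-1 this last list did not follow the sum. Its medians were -0.18 with roseoflavin, 0.17 with trametinib and -0.31 with both, the sum had a median of -0.09, and 18 of the 23 genes lay below their sum, against 2927 of all 7907 genes. The median difference between Tr+RoF and Tr was -0.46 in AsPC-1. ANGPTL4, a secreted inhibitor of lipoprotein lipase, stood at 18.7 TPM in Control, 13.0 in RoF, 23.7 in Tr and 6.88 in Tr+RoF of AsPC-1, and at 251, 340, 227 and 317 TPM in PANC-1. Trametinib alone gave its highest AsPC-1 level and the combination its lowest, with a sum of -0.16 and an observed change of -1.32. NDRG1 had a sum of -0.45 and a change of -1.10, and CA9 -0.31 and -0.87, in AsPC-1. MT1X had a sum of 0.02 and a change of -0.95. The PANC-1 departures of ANGPTL4, NDRG1 and CA9 were 0.04, 0.19 and -0.30. The departure was not tested within a line, because the only estimate of spread there is the departure itself.

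**Figure D4:**
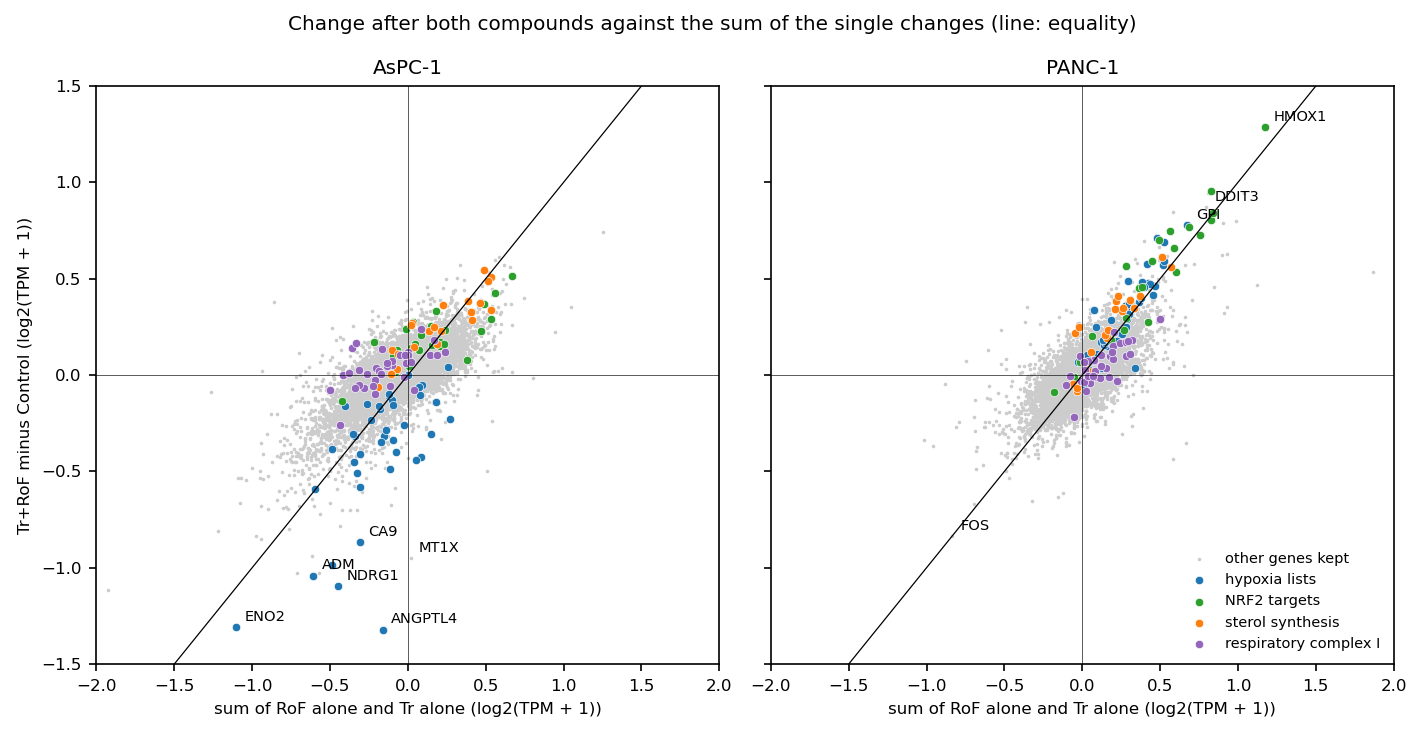
Change after both compounds (vertical) against the sum of the changes after roseoflavin alone and trametinib alone (horizontal), on the log2(TPM + 1) scale, for the 7907 genes in AsPC-1 (left) and PANC-1 (right), with the line of equality. In AsPC-1 18 of the 23 hypoxia targets outside glycolysis lie below the line and 32 of the 36 complex I genes above it, and in PANC-1 the NRF2 targets follow the line up to HMOX1. Both axes subtract the same Control library of the line, so part of the agreement between them is built in.

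Nuclear subunits and assembly factors of respiratory complex I, which passes electrons from NADH through FMN to ubiquinone, lay on the other side. Of 38 listed 36 were kept, and in AsPC-1 32 of them were above their sum, as were 4937 of all 7907 genes, with a median departure of 0.17 beside 0.05 over all genes. Their medians were -0.03 with roseoflavin, -0.11 with trametinib and 0.04 with both. In PANC-1 27 of the 36 were below their sum (median departure -0.07), as were 3687 of all genes, and the medians were 0.02, 0.10 and 0.06. Of the 16 early genes, 15 were above their sum in AsPC-1 and 7 in PANC-1, beside 4937 and 4174 of all genes. NDUFA6 stood at 90.1, 77.8, 73.3 and 85.2 TPM in AsPC-1 and at 94.1, 96.0, 106 and 109.8 TPM in PANC-1. NDUFAF8, an assembly factor that headed the departures with the same sign in both lines, stood at 14.0, 10.6, 11.3 and 14.2 TPM in AsPC-1 and at 42.8, 34.4, 38.6 and 41.9 TPM in PANC-1. Each compound alone gave a lower level and both together a level near Control. NOG, TTC38, BCS1L and C16orf91 came next above the sum, with departures of 0.30 to 0.65 in AsPC-1 and 0.33 to 0.41 in PANC-1. Below the sum in both lines were UPK3BL1, TFF2, CA9, DSN1 and CYBRD1, with departures of -0.56 to -0.29 in AsPC-1 and -0.44 to -0.30 in PANC-1. TFF2 was listed at 0 in 3 of the 4 PANC-1 libraries. No complex I gene passed a test.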

How the data were processed

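RNA from spheroids of AsPC-1 and PANC-1 was sequenced as 8 stranded mRNA libraries, 1 per line and treatment. The authors deposited 1 table of TPM values, per the file headers, each library summing to 1000000. The submitters' processing notes name STAR 2.7.3a, HTSeq 2.0.2 and hg38, without their role or settings. TPM hold no read depth, so no counting interval could be given and low values are the least certain. Blank rows (985926) were dropped and digit-group commas removed. Genes with an NM_ accession (19141 of 62649) and a mean of at least 10 TPM over the 8 libraries (7907) were kept, and log2(TPM + 1) was fitted with limma 3.58.1 in R 4.3.3 across all of them, with Benjamini-Hochberg adjustment and a threshold of 0.05. One model had line as a block and the 4 treatments. The other had line, roseoflavin, trametinib and the line-by-compound terms, in which the estimate for a line is the sum of its 2 compound effects and equals Tr+RoF minus Control. Both models were run on simulated data in which the compound effects added exactly, so that run could not test the assumption of additivity.

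Genes were named by rank: the largest changes shared by or opposed between the lines, the largest departures with 1 sign, the smallest p of each test, and members of 31 lists (616 of 617 symbols matched). The comparison, its members and the lists were chosen with earlier results of these data known. Alternatives covered scaling, pseudocount (0.1), filter, variance trend, libraries in the fit, the size rule and each library left out. A filter of a mean of 10 TPM in each line was added after the data had been seen. Promoter sequences are from RefSeq (GRCh38.p14), matched by symbol for 6498 of the genes kept.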

Additional observations from a re-analysis of the deposited data

Results flagged for a closer look

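The change after both compounds differed between the lines, by limma's test of the difference itself, for 38 genes. For the 10 with the smallest p the change in PANC-1 minus that in AsPC-1, on the log2(TPM + 1) scale, was as follows. Among glycolysis genes it was 1.7844 for ENO2, 1.042 for SLC2A1 and 1.0924 for GPI. The stress genes DDIT3 and DDIT4 differed by 1.2627 and 0.8843, and the lipid droplet gene HILPDA by 0.9496. The metallothionein MT1E differed by 1.0142, galectin gene LGALS1 by 0.9504, interferon-induced IFI6 by 1.2029 and the ephrin gene EFNA3 by 1.307. All 10 were lower than Control in AsPC-1 and higher than Control in PANC-1 after both compounds, each from 1 library per group.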

How the results depend on the processing

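No gene that passed within a line or for the line difference, among those followed singly, changed direction under any of the alternatives it was run under. Some values that had not passed, most of them averages over lines that moved oppositely, changed sign, and with another scaling the medians of the riboflavin handling, flavoprotein, mitosis, interferon, AHR target, epithelial, collagen and immune lists, all near 0, changed sign in a line. Over both lines, where 0 genes passed for Tr+RoF against Control, 2 passed with the TPM rescaled over genes with NM_ entries (FOS and DUSP6) and 1 when the 4 Control and Tr+RoF libraries were fitted alone (FOS). The 109 genes of AsPC-1 became 9 with a pseudocount of 0.1, 1 under a filter of 1 TPM on the mean and 164 with a mean of 10 TPM in each line, and the 39 of PANC-1 became 7 under the filter of 1 TPM. The 38 line differences became 10 after rescaling, 10 with the pseudocount of 0.1, 2 and 59 under filters of 1 and 30 TPM, 120 with no filter, 22 without the variance trend, 103 without the line-by-trametinib term and 88 with 10 TPM in each line. With no filter 14 genes passed for the departure and 15 for Tr+RoF against RoF, where 0 had. The 22 genes moved the same way by the size rule became 37 after rescaling, 34 with the pseudocount of 0.1, 47 and 12 under filters of 1 and 30 TPM, 788 with no filter, 11 with 10 TPM in each line, and 428 and 1 at 1.1-fold and 1.5-fold. The 25 moved oppositely became 56, 9, 730 and 13 under those 4 filters, and 326 and 1 at 1.1-fold and 1.5-fold. The 5 genes that passed in both lines with 1 direction became 1 with the pseudocount of 0.1 (FOS), 0 under the filter of 1 TPM, 0 with no filter and 9 with 10 TPM in each line, and the 3 with opposite directions became 0, 0, 0 and 6, and 1 without the variance trend (SLC2A1). The cause of these shifts was not tested.

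With each library left out in turn, the counts ranged from 0 to 4 over both lines, 0 to 92 in AsPC-1, 0 to 23 in PANC-1, 0 to 27 for the line difference, 0 to 1 for the departure, 0 to 2 against RoF, 0 to 0 against Tr, and 0 to 0 for genes passing in both lines, with 1 direction or opposite ones. The 1 departure was TFF3 without AsPC-1 Control, and the 2 genes against RoF were MFSD14C and SMIM1 without PANC-1 RoF. The size rule cannot be computed without a Control or Tr+RoF library, and the gene lists were not run with libraries left out. No paired analysis was possible because each group held a single library, so no groups shared 2 replicate numbers. The rest of the alternatives kept the count within 1.5 times. A TPM table gives no depth, so what could not be detected at these levels is not known.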
